A study of Mus musculus with 13 samples.

Results

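The blood-cell lineage miRNAs described here are 5 mature mouse miRNAs, mmu-miR-142-3p, mmu-miR-142-5p, mmu-miR-223-3p, mmu-miR-150-5p and mmu-miR-342-3p, chosen by name out of 1079 mouse miRNAs on the array. All 5 were present in the deposited expression table and in the array files. They were measured in 13 flank tumors grown from B78H1 cells in male C57BL/6 mice, with 1 array per tumor. The 7 curcumin tumors came from mice fed chow with 4% curcumin, a plant polyphenol, from 14 days before the cells were injected under the skin until the end of the experiment, and the 6 control tumors came from mice fed standard chow of the same batch. All mice received the same number of B78H1 cells in each flank, tumor growth was followed over 28 days, and RNA came from pieces of whole tumor, so each array holds RNA of tumor cells and host cells together. B78H1 is an amelanotic clone of the B16 mouse melanoma that lacks MHC class I and Tap-2, and C57BL/6 mice are an immunocompetent strain. The labels do not say which flank or which mouse a tumor came from. The 7 and 6 tumors equal the numbers of mice given in the methods, and the tests below treat each tumor as independent.

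Leukocytes carry miRNAs that most other tissues hardly make. miR-142 is produced in nearly all cells of the blood-forming lineage, and its hairpin releases both of its arms as stable miRNAs. miR-223 is known from neutrophils, monocytes and other myeloid cells, where it restrains granulocyte production and inflammatory activity. miR-150 accumulates in mature B and T lymphocytes and acts on the transcription factor Myb, and miR-342 is abundant in lymphocytes but is also made in other cells, from an intron of the Evl gene. In whole-tumor RNA, such miRNAs serve as markers of infiltrating leukocytes. However, a higher number of leukocytes, more of the miRNA per leukocyte and a contribution of the tumor cells cannot be told apart.

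The sequences are shown for their seeds, bases 2 to 8 from the 5′ end, which pair with target transcripts. They are RefSeq sequences of the assembly GRCm38.p6, with the seed in capitals. The array calls the arms of Mir142 miR-142-3p and miR-142-5p, and RefSeq calls the same arms miR-142a-3p and miR-142a-5p.
mmu-miR-142-3p: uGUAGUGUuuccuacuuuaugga
mmu-miR-142-5p: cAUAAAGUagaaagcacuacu
mmu-miR-223-3p: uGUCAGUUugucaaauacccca
mmu-miR-342-3p: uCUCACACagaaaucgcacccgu
These 4 seeds differ from each other, and none of them recurs among the other mature mouse miRNAs of the RefSeq table, which holds 1679 names. miR-142-3p lies at chr11:87756903-87756925, miR-142-5p at chr11:87756867-87756887, miR-223-3p at chrX:96242884-96242905 and miR-342-3p at chr12:108658680-108658702, all on the plus strand. Both miR-142 arms come from the same 64-base hairpin, at chr11:87756864-87756927 on the plus strand, shown here with the 5p arm and then the 3p arm in capitals because their values are compared below.
Mir142: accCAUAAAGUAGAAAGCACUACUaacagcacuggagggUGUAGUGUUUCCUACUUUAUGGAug
In the RefSeq gene table, Mir142 overlaps the miRNA gene Mir142b and has Supt4a and Tspoap1 as the nearest protein-coding genes. Mir223 lies within the noncoding gene F630028O10Rik, between Msn and Vsig4. Mir342 lies within Evl.

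Each miRNA was read by 2 probes with 20 spots each, and no mouse spot was saturated. The values below are log2 of the summed probe signals after quantile normalization over the 13 arrays, a step that forces the same spread of values on each array. Total signal per array ranged from 150272 to 244666 in the control group and from 114095 to 281508 in the curcumin group, and the lowest total, of curcumin tumor 5, went with the fewest detected miRNAs, 272. The arrays lay on 2 slides that both held tumors of both diets, 3 curcumin and 2 control on slide 1 and 4 of each on slide 2. On both slides the control arrays occupied one line of the layout and the curcumin arrays the other, so that array position and diet cannot be told apart.

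All 5 miRNAs were higher in the curcumin group with limma at a Benjamini-Hochberg adjusted p below 0.05. Without normalization between arrays, or with scaling to the 75th percentile of positive signals, all 5 were still higher but miR-142-3p alone was called, and with the replicate number as a block 3 of the 5 were. Over the whole array, 8.34% of the 1079 miRNAs were called higher under curcumin, and of the 243 miRNAs detected on all arrays 20.2% were. In the deposited log2 values limma also called all 5 higher, beside 9.55% of all miRNAs. The median log2 difference of the 5 miRNAs, curcumin minus control, was 2.31, beside 0.00 over all miRNAs tested and -0.09 over those detected on all arrays. In 4 of the 5, every curcumin tumor lay above every control tumor, which was the case for 4.08% of all miRNAs and for 8.23% of those detected on all arrays.

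**Figure D1:**
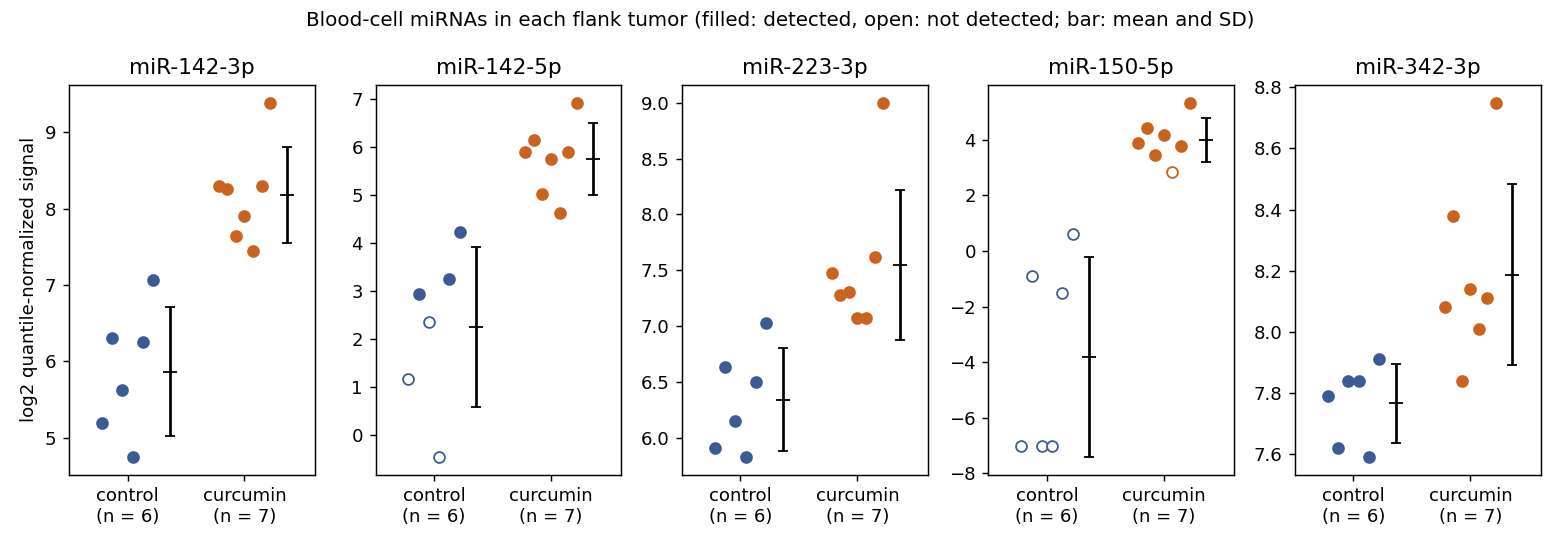
Log2 quantile-normalized signal (vertical axis, a separate scale per panel) of the 5 blood-cell miRNAs in 6 control and 7 curcumin tumors, with a point per tumor, filled where the miRNA was detected, and a bar for the mean and SD. The curcumin tumors lie above all control tumors in each panel except that of miR-342-3p, and miR-150-5p is detected in no control tumor.

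miR-142-3p, from the 3′ side of the pan-leukocyte hairpin, was detected in all 13 tumors. Its log2 value had a lowest, median and highest value of 7.45, 8.26 and 9.39 in the curcumin group. The corresponding control values were 4.75, 5.94 and 7.07. The groups did not overlap, and the gap between the lowest curcumin tumor and the highest control tumor was 0.38. The difference of the means was 2.31 (SE 0.40), a 4.96-fold higher signal, with an adjusted p of 0.00407 by limma. This was the 5th largest rise among the 243 miRNAs detected on all arrays, and no division of the tumors into 7 and 6 gave a larger difference (exact permutation p = 0.000583, the smallest that 1716 divisions allow, two-sided). Its 2 probes gave almost the same difference, 2.30 and 2.33, when each was used alone.

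miR-142-5p, the other arm, was detected in all 7 curcumin tumors but in only 3 of the 6 control tumors, those numbered 2, 5 and 6. Its log2 value had a lowest, median and highest value of 4.63, 5.90 and 6.93 in the curcumin group. The control values were -0.45, 2.65 and 4.23, of which the 3 lowest came from the tumors in which it was not detected. The groups did not overlap. The difference of the means was 3.51 (SE 0.69), with an adjusted p of 0.00693 by limma and an exact permutation p of 0.000583. Its size depends on how the undetected tumors are treated. With values under the detection limit of an array raised to that limit, the difference was 3.17, and in the deposited log2 values, which carry an added constant that compresses low signals, it was 2.55 (SE 0.37, adjusted p 0.000604 by limma). After normexp background correction, which adds a constant to every signal and so compresses dim miRNAs further, it was 0.84 (adjusted p 0.00748 by limma). The call was lost without normalization (adjusted p 0.0839), with scaling to the 75th percentile of positive signals (0.0728) and with the replicate block (0.0588). Both probes moved the same way, by 4.49 and 3.11, and the first had an adjusted p of 0.0519 when used alone.

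miR-223-3p, the myeloid miRNA, was detected in all 13 tumors. The curcumin tumors had a lowest, median and highest log2 value of 7.07, 7.31 and 9.00. The control tumors had 5.83, 6.33 and 7.03. The groups did not overlap, but they touched, with a gap of 0.04 between curcumin tumors 4 and 5 and control tumor 6. The difference of the means was 1.21 (SE 0.32), a 2.31-fold higher signal, with an adjusted p of 0.0295 by limma and an exact permutation p of 0.000583. It ranked 26th among the rises of the miRNAs detected on all arrays. Curcumin tumor 7 stood above the rest of its group, and without it the difference was 0.96 (adjusted p 0.0129 by limma). The call was lost without curcumin tumor 1 or 6 or without control tumor 1, 3 or 4, with adjusted p values of up to 0.0659, while the difference stayed between 0.96 and 1.34 whichever single tumor was left out.

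miR-150-5p, the miRNA of mature lymphocytes, was not detected in any of the 6 control tumors and was detected in 6 of the 7 curcumin tumors, the exception being tumor 5, which had the lowest total signal. The lowest, median and highest log2 value in the curcumin group were 2.83, 3.90 and 5.34. In the control group, 3 tumors (1, 3 and 4) had no positive signal and stood at the lowest value on the scale, -7.03, and tumors 2, 5 and 6 had -0.90, -1.52 and 0.62. The groups did not overlap. Taking each control array at the higher of its own value and its lowest signal of a detected miRNA gave a control mean of 0.68, against a curcumin mean of 3.99. By this convention the miRNA was 9.91-fold higher in the curcumin tumors. The convention is not a bound, since a miRNA can go undetected above the limit of its array. In control tumor 3, miR-142-5p did so at 2.36, with a limit of 1.57. Curcumin tumor 5 entered at its own miR-150-5p signal of 2.83, which was above the limit of its array (2.56) although the miRNA was not marked as detected. The fitted difference of 7.80 (SE 1.37, adjusted p 0.00407 by limma, exact permutation p = 0.000583) follows from the value given to tumors without signal and is not a measured size. It was 3.88 with a floor of 1, 2.24 in the deposited values (SE 0.29, adjusted p 0.000285 by limma) and 0.40 after normexp correction (adjusted p 0.00689 by limma). The call was lost without normalization (adjusted p 0.0559) and with scaling to the 75th percentile of positive signals (0.051). Most of the signal came from 1 of its probes, with a median of 11.7 in the curcumin tumors and 0.66 in the control tumors before normalization. The other had medians of 3.68 and -0.526, and no spot of it exceeded the background in 4 of the curcumin tumors.

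miR-342-3p, the second lymphoid miRNA, was detected in all 13 tumors and had SDs of 0.30 in the curcumin and 0.13 in the control group. The lowest, median and highest log2 value in the curcumin group were 7.84, 8.11 and 8.75. The control tumors had 7.59, 7.81 and 7.91. The groups overlapped, since curcumin tumor 3 lay below control tumor 6. The difference of the means was 0.42 (SE 0.13), a 1.34-fold higher signal, with an adjusted p of 0.0471 by limma and an exact permutation p of 0.0035. It lay just inside the threshold, and leaving out any single tumor other than curcumin tumor 3, 5 or 7 moved it outside, to adjusted p values of up to 0.0985. The opposite arm of the same hairpin, miR-342-5p, was detected in 5 curcumin and 3 control tumors and had a difference of -0.97 (SE 1.28, adjusted p 0.938 by limma). Curcumin tumor 5 had no positive signal and entered at -7.03, so that this is not a measured size. In the deposited values the difference was -0.06 (adjusted p 0.879 by limma). The opposite arms miR-223-5p and miR-150-3p were detected in no tumor.

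The differences were also present on each slide. On slide 1, with 3 curcumin and 2 control tumors, they were 2.31 for miR-142-3p, 3.64 for miR-142-5p, 1.08 for miR-223-3p, 7.90 for miR-150-5p and 0.39 for miR-342-3p. On slide 2, with 4 tumors of each diet, they were 2.34, 3.46, 1.31, 7.77 and 0.46 in the same order. In all 5 miRNAs the curcumin tumors of a slide lay above the control tumors of that slide. The share of all miRNAs separated in this way within a slide was not counted, so nothing is concluded from it. With so few arrays no adjusted p of limma fell below 0.05 within a slide. The error that the scanner software assigns to each detected signal was between 7.16% and 18.0% of it.

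To compare lineage with lineage, the log2 values of 2 miRNAs were subtracted within each tumor, and these differences were compared between the diets by an exact two-sided permutation test, with Benjamini-Hochberg adjustment over all 10 pairs. A pair that changes between the diets shows that the 2 miRNAs differed by unequal amounts. It does not rank their levels, since different probes were used. All 10 pairs passed. The 4 pairs that contain miR-150-5p rest on control tumors without signal and are taken up separately below.

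The pan-leukocyte arm miR-142-3p rose by more than the myeloid miR-223-3p. miR-142-3p minus miR-223-3p was 0.63 ± 0.26 (SD, n = 7) in the curcumin group and -0.47 ± 0.39 (SD, n = 6) in the control group. Every curcumin tumor had a higher difference than any control tumor, with values from 0.34 to 0.98 against -1.08 to 0.04. The change between the diets was 1.11 (adjusted p 0.000648, exact permutation), and in the deposited values it was 1.05 (adjusted p 0.000971, exact permutation). The same held against the lymphoid miR-342-3p, where the change was 1.89 (adjusted p 0.000648, exact permutation) and the groups ran from -0.56 to 0.64 and from -3.09 to -0.83.

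miR-142-5p also rose by more than miR-342-3p, with a change of 3.08 (adjusted p 0.000648, exact permutation) that was 2.13 in the deposited values and 0.46 after normexp correction. Its change against miR-223-3p was 2.30 (adjusted p 0.000648, exact permutation) and 1.38 in the deposited values, but it was -0.04 after normexp correction. The pair of miR-142 arms depended on this choice too. miR-142-3p minus miR-142-5p fell by 1.20 (adjusted p 0.000648, exact permutation), and by 0.33 in the deposited values, whereas it rose by 0.77 after normexp correction (adjusted p 0.00146). Whether the 2 arms of the hairpin rose unequally therefore cannot be read from these arrays.

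The myeloid miR-223-3p rose by more than the lymphoid miR-342-3p, with a change of 0.78 (adjusted p 0.0157, exact permutation). The groups overlapped, with values from -1.10 to 0.25 in the curcumin group and from -2.01 to -0.88 in the control group. The change was 0.56 without normalization between arrays, where the adjusted p was 0.067. The result holds for these miRNAs and not for myeloid against lymphoid as such. For the other lymphoid miRNA, miR-223-3p minus miR-150-5p had a change of -1.07 in the deposited values and of 0.48 after normexp correction.

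**Figure D2:**
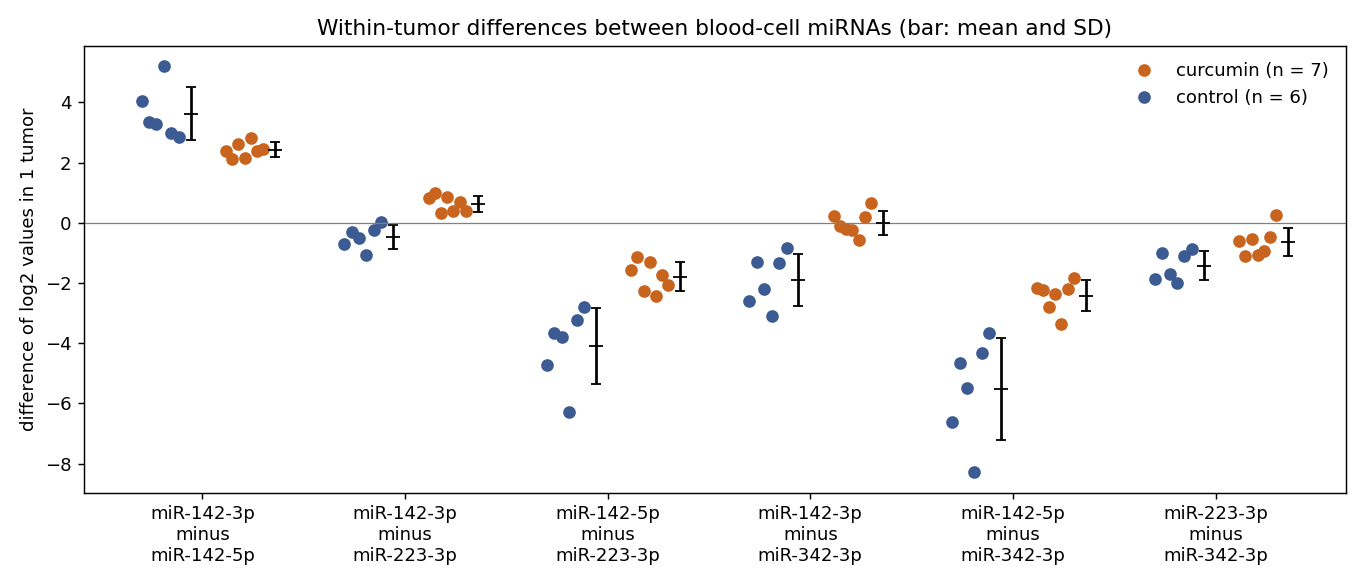
Difference of the log2 values of 2 miRNAs in the same tumor (vertical axis), for the 6 pairs without miR-150-5p, with a point per tumor and a bar for the mean and SD of 6 control and 7 curcumin tumors. The groups do not overlap in 5 of the pairs and overlap for miR-223-3p minus miR-342-3p.

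The 4 pairs with miR-150-5p had changes between 4.29 and 7.38 in favor of miR-150-5p, all with an adjusted p of 0.000648 by the exact permutation test. Since 3 control tumors had no signal, the deposited values are given beside them. There, miR-150-5p rose by more than miR-342-3p, by 1.82, and miR-223-3p minus miR-150-5p fell by 1.07, both with an adjusted p of 0.000971 by the exact permutation test. The pairs with the miR-142 arms did not pass in the deposited values, with changes of -0.02 for miR-142-3p minus miR-150-5p (adjusted p 0.904) and 0.31 for miR-142-5p minus miR-150-5p (adjusted p 0.143). After normexp correction the direction seen in the normalized values turned in all 4 pairs except miR-150-5p minus miR-342-3p, where 0.02 was left. The rise of the 2 lymphoid miRNAs was therefore unequal in the normalized and the deposited values but not after normexp correction.

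The miRNAs also varied together from tumor to tumor within a diet. Curcumin tumor 7 had the highest value of all 5 miRNAs in its group, and control tumor 6 the highest of all 5 in its group. This was not particular to blood-cell miRNAs. Control tumor 6 was also the highest control tumor for miR-451 (9.42), miR-126-3p (8.11) and miR-199a-5p (5.61), but not for miR-155-5p or miR-146a-5p. Curcumin tumor 5 was lowest for both miR-142 arms and miR-150-5p, and control tumor 4 was lowest for both miR-142 arms and for miR-223-3p. Correlations were computed within each diet for the 10 pairs, 20 in all, with exact permutation p values adjusted over the 20.

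In the control group, the 3 pairs among miR-142-3p, miR-142-5p and miR-223-3p passed with both Pearson's r and Spearman's rho, with miR-142-5p under detection in 3 of the tumors. Pairs with miR-150-5p are not read there, because it was detected in no control tumor. miR-142-3p and miR-223-3p had the same order in all 6 control tumors (r = 0.99, adjusted p 0.0132, rho = 1.00, adjusted p 0.0417, n = 6, exact permutation), and r stayed 0.99 without the 2 tumors farthest from the median of miR-142-3p. Among the control tumors no pair with miR-342-3p passed, with r = -0.13 to miR-142-3p (adjusted p 0.822, rho = 0.03, adjusted p 1.00, n = 6, exact permutation), and r was -0.87 without the 2 farthest tumors.

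In the curcumin group, 8 of the 10 pairs passed with Pearson's r and 5 with Spearman's rho. miR-142-3p and miR-142-5p had r = 0.95 (adjusted p 0.0132, rho = 0.89, adjusted p 0.0417, n = 7, exact permutation), and r was 0.89 without the 2 tumors farthest from the median. miR-142-5p and miR-150-5p had r = 0.96 (adjusted p 0.0132, rho = 0.88, adjusted p 0.0417, n = 7, exact permutation), and r was 0.82 without those tumors. For miR-142-3p and miR-223-3p, r was 0.92 (adjusted p 0.018, rho = 0.85, adjusted p 0.0476, n = 7, exact permutation) but 0.57 without the 2 farthest tumors, so that much of the relation rests on them. miR-150-5p and miR-342-3p, the lymphoid pair, had r = 0.89 (adjusted p 0.018, rho = 0.93, adjusted p 0.0417, n = 7, exact permutation) and 0.95 without the 2 farthest tumors. The difference between the diets in these correlations was not tested.

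**Figure D3:**
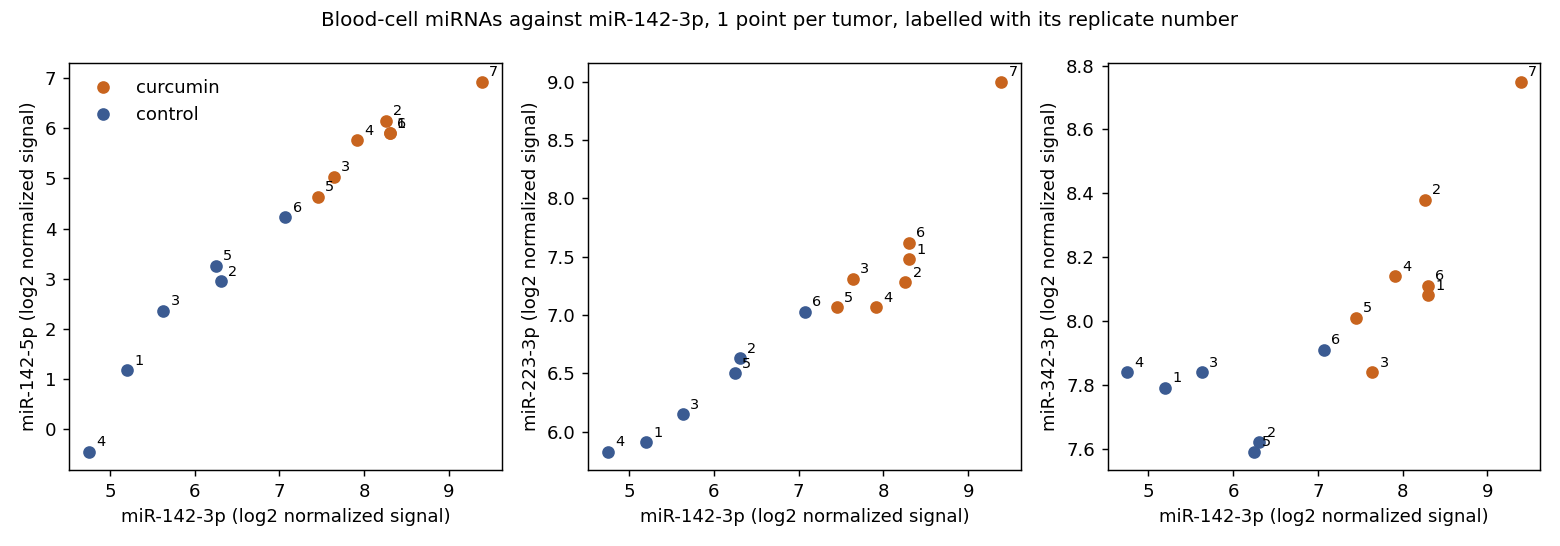
miR-142-5p, miR-223-3p and miR-342-3p (vertical axes, log2 normalized signal) against miR-142-3p (horizontal axis, log2 normalized signal), with a point per tumor that carries its replicate number. Both miR-142-5p and miR-223-3p rise with miR-142-3p within each diet. For miR-342-3p, r is 0.89 in the curcumin and -0.13 in the control tumors. In the curcumin tumors its r is 0.68 without the 2 farthest tumors, and its rho of 0.67 did not pass (adjusted p 0.166, exact permutation).

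The miRNAs most like the blood-cell miRNAs were sought among 240 other miRNAs detected on all arrays, by Pearson's r over the 13 tumors after the mean of each diet was taken off, as a description. The 5 nearest to miR-142-3p were miR-199a-5p (r = 0.95), miR-511-3p (0.89), miR-199a-3p (0.86), miR-155-5p (0.86) and miR-126-3p (0.83). The 5 nearest to miR-223-3p were miR-126-3p (0.93), miR-511-3p (0.88), miR-155-5p (0.85), miR-199a-5p (0.78) and miR-195-5p (0.74). Curcumin tumor 7, which stood above its group in miR-223-3p, was also the highest of its group in the first 4 of these. Its log2 values there were 9.66, 6.69, 6.57 and 7.52, and no ranking was made without it. For miR-150-5p no such ranking is given, because its spread was largest among the control tumors, in which it was not detected (SD 3.59, against 0.79 in the curcumin group). The lists mix a macrophage miRNA (miR-511, from the mannose receptor gene Mrc1), an activation miRNA of lymphoid and myeloid cells (miR-155), an endothelial miRNA (miR-126) and the miR-199 family of fibroblasts and other mesenchymal cells. The same measure between the blood-cell miRNAs themselves was 0.94 for the 2 miR-142 arms, 0.90 for miR-142-3p and miR-223-3p and 0.49 for miR-142-3p and miR-342-3p.

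A list of 8 other arms of leukocyte miRNAs gave 3 higher under curcumin, none lower and 5 not called, of which 4 were detected in no tumor. miR-511-3p rose by 1.69 (SE 0.30, adjusted p 0.0045 by limma), with log2 values from 5.01 to 6.69 in the curcumin group and from 3.29 to 4.60 in the control group. miR-155-5p rose by 1.74 (SE 0.35, adjusted p 0.00749 by limma), and miR-146a-5p, which is induced by NF-kB signaling, by 1.08 (SE 0.25, adjusted p 0.015 by limma). In these 3 miRNAs, which were detected on all arrays, the groups did not overlap either. Of the miRNAs detected on all arrays, 20.2% were called higher and 8.23% had every curcumin tumor above every control tumor. Over all miRNAs the shares were 8.34% and 4.08%. miR-181a-5p, which is high in developing lymphocytes but made in many tissues, had a difference of 0.36 (SE 0.22, adjusted p 0.393 by limma). The list's median difference was 0.51, which includes the undetected arms.

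Some markers of other cell types were called different between the diets as well, and others were not. Over the whole array, 90 of 1079 miRNAs (8.34%) were called higher under curcumin and 81 lower. Of 5 fibroblast miRNAs on the array, 3 were called higher under curcumin and none was called lower, with a median difference of 2.21. Their summed normalized signal ranged from 701 to 1570 in the curcumin tumors and from 172 to 507 in the control tumors. Of these, miR-199a-5p rose by 2.55 (SE 0.50, adjusted p 0.00655 by limma). miR-214-3p was not called, with a difference of 5.61 (adjusted p 0.0501 by limma) that includes 2 control tumors without positive signal, at -7.03. In the deposited values it was called, with 2.09 (adjusted p 0.000976 by limma). miR-214-5p went the other way, with -2.58 (SE 1.40, adjusted p 0.307 by limma), and was detected in 2 curcumin and 3 control tumors. Curcumin tumor 5 had no positive signal of miR-214-5p and entered at -7.03, and the deposited values gave -0.76 (adjusted p 0.0655 by limma). The endothelial arms miR-126-3p and miR-126-5p had differences of 0.83 and 0.96 (adjusted p 0.0647 and 0.0758 by limma). In the deposited values they had 0.82 and 0.40 (adjusted p 0.0384 and 0.0671 by limma), so that miR-126-3p was called there. Their sums ran from 254 to 820 under curcumin and from 137 to 281 under the control diet. Of 4 skeletal muscle miRNAs, 1 was called higher, with sums from 29.1 to 962 and from 23.3 to 607. The epithelial miR-205-5p was the only called miRNA of 7 in its list, with list sums from 218 to 1740 under curcumin and from 3.28 to 165 under the control diet, while 5 of the 7, among them all 3 miR-200 arms listed, were detected in no tumor. The melanocytic pair summed to between 4.19 and 624 under curcumin and between 308 and 847 under the control diet, with miR-211-5p called lower. The part of these other cell types, and of tumor size, in the differences of the blood-cell miRNAs was not tested.

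The miRNAs of red blood cells, the other blood lineage, gave no call in either direction. The erythroid miR-451 was detected in all 13 tumors, with log2 values from 5.50 to 8.08 in the curcumin group and from 5.32 to 9.42 in the control group. Its difference was -0.82 (SE 0.65, adjusted p 0.614 by limma), and none of the 3 erythroid miRNAs found on the array by name was called. miR-144-3p was detected in 2 control tumors alone, and miR-144-5p in none. The summed erythroid signal ranged from 45.4 to 277 in the curcumin tumors and from 39.9 to 715 in the control tumors, the highest sum being that of control tumor 6.

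**Figure D4:**
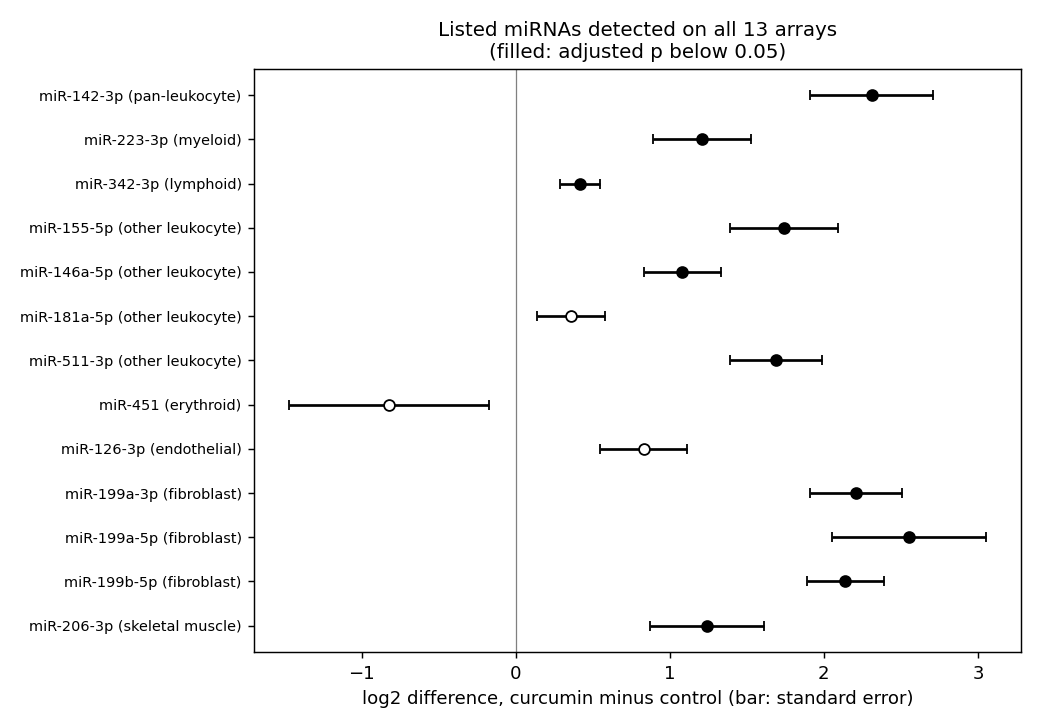
Log2 difference, curcumin minus control (horizontal axis, bars for the standard error), of the listed miRNAs that were detected on all 13 arrays, with the cell type of the list in brackets, filled where the adjusted p of limma was below 0.05. The leukocyte and fibroblast miRNAs shown lie to the right of 0, while miR-451 of red blood cells lies to the left and was not called. The listed miR-214-5p and miR-342-5p, with differences of -2.58 and -0.97, were not detected on all arrays and are not shown. In both, curcumin tumor 5 had no positive signal and entered at -7.03. Their differences in the deposited values were -0.76 and -0.06.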

How the data were processed

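Tumor RNA was labeled with Cy3 and hybridized to Agilent SurePrint G3 mouse miRNA arrays. Per the file headers, the authors read the intensity of every probe with background subtraction and a detection flag per miRNA, in Feature Extraction 10.10.1.1. The authors also deposited log2 values, described as quantile normalized. Every one of them was met within 1e-04 by log2 of a quantile-normalized sum plus 4.39. The sum was that of the detected probes, or of all probes where a miRNA was not detected. Here, all probes of a miRNA were summed, quantile normalized over 13 arrays, values at or below 0 set to 0.00765 (log2 -7.03), and log2 taken. Curcumin and control tumors were tested in limma 3.58.1 under R 4.3.3 (two-sided, no covariates, Benjamini-Hochberg over 1079 miRNAs, threshold 0.05) and, for single miRNAs and pairs, with an exact permutation test in Python (version 3.11.15). An array's detection limit was its lowest Feature Extraction total of a detected miRNA, carried to the normalized scale. The limma step was tested on simulated data. The number of arrays limits the precision, and p values measure the spread between these tumors. The named miRNAs were the 5 blood-cell miRNAs, their opposite arms, 8 other leukocyte arms, the 5 nearest to miR-142-3p and to miR-223-3p (a ranking for miR-150-5p was computed but not used), and markers of other cell types. They and the lists were chosen with earlier results of these data known. Alternatives were the deposited values, other scalings, floors and background correction, the methods' t-test on the log2 values, slide and replicate blocks, single slides, single probes and each tumor left out.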

Additional observations from a re-analysis of the deposited data

Results flagged for a closer look

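Of 10 sets of values (5 miRNAs in 2 diets) checked for a single tumor far from the others of its group, 1 stood out, and chance alone marks about 1 in 20 such groups. miR-223-3p had a log2 value of 9.00 in curcumin tumor 7, against 7.62 in the next highest tumor of that group, a gap that made up 0.717 of the whole range. The same tumor was the highest of its group for the other 4 blood-cell miRNAs.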

How the results depend on the processing

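The direction of all 5 miRNAs was the same under every alternative run. miR-142-3p had differences of 1.61 to 2.46 and stayed called everywhere except within single slides (2.31 on slide 1 and 2.34 on slide 2), where none of the 5 miRNAs was called (miR-142-5p 3.64 and 3.46, miR-223-3p 1.08 and 1.31, miR-150-5p 7.90 and 7.77, miR-342-3p 0.39 and 0.46) and 34 and 3 miRNAs were called in all, against 171. Scaling to the 75th percentile of all positive signals left 1 of the 5 and 47 miRNAs in all, with miR-142-5p at 3.87 (adjusted p 0.0728 by limma), miR-223-3p at 1.26 (0.132), miR-150-5p at 8.76 (0.051) and miR-342-3p at 0.70 (0.173). Without normalization 1 of the 5 and 49 in all were called, with 3.69 (0.0839), 1.08 (0.232), 8.81 (0.0559) and 0.52 (0.404) in the same order. With the 75th percentile of miRNAs detected on all arrays, miR-223-3p had 1.09 (0.058), and there, as without normalization, the median difference of those 243 miRNAs was -0.26 in place of -0.09. miR-342-3p lost its call at 0.42 with the array's detection limit as floor (0.332), with the methods' t-test (equal variances 0.0528, unequal 0.0604, and on the deposited values 0.0512, an alternative chosen after seeing the data), at 0.44 with the slide as a block (0.0526) and at 0.40 with its first probe alone (0.0573), and miR-142-5p at 4.49 with its first probe alone. Restricted to miRNAs with a detection flag on each array of at least 1 diet, the table gave no value for miR-150-5p.

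Leaving out each tumor gave 2.09 to 2.55 for miR-142-3p, 2.97 to 3.90 for miR-142-5p, 0.96 to 1.34 for miR-223-3p, 7.16 to 8.69 for miR-150-5p and 0.33 to 0.48 for miR-342-3p, with 3 to 5 of the 5 and 103 to 184 miRNAs in all called and 10 pairs passing each time. The count of all miRNAs moved by more than 1.5 times without control tumor 2 or 4 (107 and 103) and without curcumin tumor 1, 2 or 6 (111, 112 and 103). The replicate block left 3 of the 5 and 67 miRNAs called, with miR-142-5p at 3.31 (0.0588) and miR-342-3p at 0.33 (0.122), and took miR-223-3p minus miR-342-3p to 0.63 (0.112). Equal replicate numbers did not pair the tumors, with correlations of -0.301 to 0.198 and 0 of 13 tumors closest to their own number. Pairs passing numbered 8 to 10 of 10. Turned signs came with normexp for miR-142-3p minus miR-142-5p (0.77), miR-142-3p minus miR-150-5p (1.20), miR-142-5p minus miR-223-3p (-0.04), miR-142-5p minus miR-150-5p (0.44) and miR-223-3p minus miR-150-5p (0.48), and with the deposited values for miR-142-5p minus miR-150-5p (0.31). Of the 20 correlations, 14 passed in the normalized and 14 in the deposited values, 3 of the former in control tumors with miR-150-5p, where it was not detected. Causes beyond fewer arrays were not tested, and signals near background limit miR-142-5p and miR-150-5p.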
